A study of Homo sapiens with 4 samples.

Results

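The 708 regions described here are the m5C peaks of chromosome 19 in 2 deposited lists that together hold 8919 peaks. They are every peak listed on that chromosome, except the minus-strand peaks that overlap positions 40353963 to 40440533 of the hg19 build, of which each list holds 14. Replicate 1 kept 268 of its 3177 peaks, a share of 8.44% (95% Wilson interval 7.52 to 9.45), and replicate 2 kept 440 of 5742, a share of 7.66% (7.003 to 8.38). The RNA came from PANC-1 cells, an established line from a human pancreatic carcinoma, that had been exposed to extracellular vesicles. The vesicles came from cancer-associated fibroblasts, which are connective tissue cells altered by a nearby tumour. The labels give 2 samples immunoprecipitated with an m5C antibody and 2 input samples, and name 1 peak list for each replicate number. All 4 samples were exposed to the vesicles, and an unexposed group was not analysed here. PANC-1 is known to carry extra copies of a stretch of band 19q13, and copy number was not measured here.

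5-Methylcytosine (m5C) is a methyl mark on cytosines of RNA, written by enzymes such as NSUN2 and DNMT2 and bound by readers such as ALYREF, an mRNA export factor. In m5C MeRIP-seq, antibody-bound RNA fragments are sequenced beside input RNA. A peak is called where the bound fragments outnumber those of the input. Chromosome 19 is the most gene-dense human chromosome and is rich in G and C. It also carries long tandem clusters of KRAB zinc-finger genes, which encode DNA-binding repressors, many of them directed at transposable elements. Band 19p12, next to the centromere, holds a very large cluster of this kind, and others lie in 19p13.2, 19q13.12, 19q13.31, 19q13.41 and 19q13.43. An annotation of the hg19 build was not used here, so no peak was assigned to a gene. Peaks are given by strand and 1-based hg19 position on chromosome 19.

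Each comparison below sets 1 list beside the other or parts of a list beside each other. There is 1 list per replicate and 1 condition, so no test over samples could be made, and no p-value is given. Wilson intervals cover the counting of peaks only. They take peaks as independent, which neighbouring peaks of 1 transcript are not. The lists hold no read counts, so the depth behind a peak is unknown, and the labels do not say whether separate cultures were used. The spread between replicates may therefore be technical.

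The first question was where on the chromosome the peaks lay. Windows of 1 Mb were counted by peak midpoint, 25 on the short arm (up to 25 Mb) and 33 on the long arm (from 27 Mb), with the 2 windows between them taken as the centromere gap. Per window, replicate 1 had a median of 4 peaks (interquartile range 2 to 7, highest 26) and replicate 2 a median of 7 (3.25 to 12, highest 22). Over all 60 windows up to the last listed peak, gap included, the averages were 4.47 and 7.33 peaks per window. The other chromosomes, counted in the same way over 3039 windows with their gaps included, had 0.953 and 1.74. The ratio of these averages was 4.69 in replicate 1 and 4.21 in replicate 2. Peaks also lay closer together here. The median distance from a peak midpoint to the nearest other midpoint of its list was 27.3 kb in replicate 1 and 17.9 kb in replicate 2, against 86.7 and 43.8 kb on the other chromosomes.

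**Figure D1:**
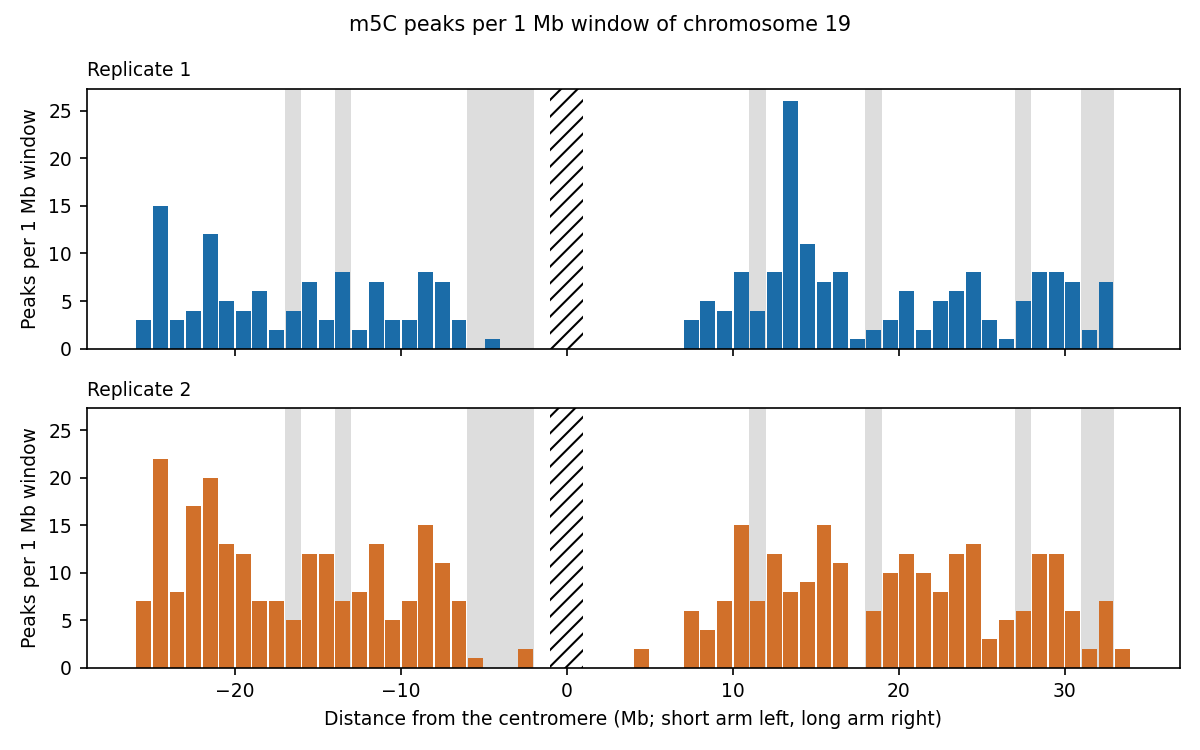
m5C peaks per 1 Mb window of chromosome 19 (bars), plotted by distance from the centromere in Mb, with replicate 1 above and replicate 2 below. Grey bands mark the 11 zinc-finger windows and hatching the centromere gap. Both lists thin out on either side of the gap, and replicate 1 has a single bar of 26 peaks on the long arm where replicate 2 has 8.

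The 6 windows with most peaks over both lists began at 1, 39, 4, 17, 36 and 41 Mb. The window from 1 to 2 Mb, near the end of the short arm, held 15 peaks in replicate 1 and 22 in replicate 2. It was the densest window of replicate 2, and no window of any other chromosome held more than 21 peaks of that list. The window from 4 to 5 Mb held 12 and 20 peaks, and those from 17 and from 36 Mb held 8 and 15 each. In the window from 41 to 42 Mb the counts were 7 and 15. In these 5 windows replicate 2 held more peaks, as it did in 41 windows of the chromosome. Replicate 1 held more in 7 windows, and 3 occupied windows had equal counts.

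The window from 39 to 40 Mb on the long arm went furthest the other way, with 26 peaks in replicate 1 and 8 in replicate 2. It was the densest 1 Mb window of replicate 1 on any chromosome, the next on another chromosome holding 15. Of the 26 peaks, 19 lay on the plus strand, 73.1% (53.9 to 86.3). Over the chromosome, these peaks included, the share was 52.2% (46.3 to 58.1), and the intervals overlap. Replicate 2 had 4 plus-strand and 4 minus-strand peaks in the window. Scores at or above 3100, the most frequent score of replicate 1, were held by 14 of its 26 peaks. That was 53.8%, close to the 54.1% of the chromosome. The last 0.2 Mb of the window held 14 of the replicate 1 peaks and 3 of the replicate 2 peaks. Within it, 4 plus-strand peaks of replicate 1 lay between 39911266 and 39917042, a span of 5.78 kb, with scores of 3100, 1112.75, 3122.3 and 1341.05 and widths of 34, 158, 261 and 369 bp. Replicate 2 listed no peak in that span. The window still held 3 overlapping pairs. In 1 of them, on the plus strand, replicate 1 listed 39936481 to 39936605 with a score of 2622.52. Replicate 2 listed 39936284 to 39936605 there, ending on the same base, with a score of 3100.

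The peak names carry numbers that increase with position in both lists, and most numbers are missing from the lists. The span of numbers between listed peaks therefore gives how many peak numbers fall in a stretch, with limits set by the nearest listed peaks. The lists are labelled mRNA, and why the other numbers are missing was not examined. In replicate 1 the window from 39 to 40 Mb spanned about 129 numbered peaks (limits 126 to 150) and the next, from 40 to 41 Mb, about 126 (94 to 128). Those values were 5.35 and 5.24 times the median window of the chromosome, which spanned 24.02. The next highest window of chromosome 19 spanned 46.4, and the highest of any other chromosome 67.0. In replicate 2 the window from 40 to 41 Mb was also the highest of all, with about 247 numbered peaks (224 to 254) and 2.55 times its median of 96.98. The window from 39 to 40 Mb was the third on the chromosome there, with about 169 (155 to 206) and 1.74 times the median. The stretch from 39 to 41 Mb was thus dense in numbered peaks in both replicates, by a larger factor in replicate 1. The 14 peaks per list that are left out here lie in it and are among its numbered peaks. The parts from 40.3 to 40.4 Mb and from 40.4 to 40.5 Mb hold the left-out region. They spanned about 28.8 and 18.6 numbered peaks in replicate 1, and about 39.5 and 33.1 in replicate 2. The ranks and factors given for the window from 40 to 41 Mb include these numbers, and no rank was computed without them.

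Over both windows together, the share of numbered peaks that were listed was below that of the whole chromosome. From 39 to 41 Mb, without the peaks left out, 15.7% were listed in replicate 1 (limits from the numbering 15.2 to 16.4) and 4.19% in replicate 2 (4 to 4.40). Over the chromosome the shares were 17.03% (16.8 to 17.3) and 8.32% (8.23 to 8.41). Replicate 1 had 37 listed and 14 left-out peaks among about 249 numbers of the stretch. With the 14 counted as listed, its share was above the 17.8% of the chromosome with them kept. Replicate 2 had 17 listed and 14 left-out peaks among about 419.5, and its share stayed below the 8.56% of the chromosome. With the 14 left out, about 20.2% were listed from 39 to 40 Mb and 9.84% from 40 to 41 Mb in replicate 1. All 14 lie in the latter window, which held 11 other listed peaks among about 126 numbers. Counted as listed, they bring its share close to that of the former. In replicate 2 the same windows had about 4.73% and 3.85%. There the latter held 9 listed and 14 left-out peaks among about 247, and with the 14 counted it was the higher.

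The long arm was the denser in replicate 1 and the short arm in replicate 2, a difference between lists that was not tested. In replicate 1 the short arm held 110 peaks, or 4.4 per window, and the long arm 158, or 4.79 per window. The ratio of these densities was 0.919, with a 95% interval of 0.721 to 1.17 that includes equal density. In replicate 2 the short arm held 218 peaks, or 8.72 per window, and the long arm 222, or 6.73 per window, a ratio of 1.30 (1.08 to 1.56). The direction in replicate 1 rested on 1 window. Without the window from 39 to 40 Mb its ratio was 1.07 (0.829 to 1.37), and that of replicate 2 was 1.30 (1.08 to 1.57). Of the numbered peaks, the short arm of replicate 2 kept 9.36% (limits from the numbering 8.87 to 9.90) and its long arm 7.50% (7.29 to 7.73). In replicate 1 these shares were 18.8% (16.6 to 21.6) and 16.0% (14.7 to 17.6), with limits that overlap.

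The zinc-finger clusters were examined next, as 11 windows placed from general knowledge of hg19. They also hold other genes, since cluster borders do not fall on whole megabases. Together they held 33 replicate 1 peaks, 3 per window, against 235 or 5 per window in the 47 other windows outside the centromere gap, a ratio of 0.6 (0.418 to 0.862). In replicate 2 they held 43 peaks, 3.91 per window, against 397 or 8.45 per window, a ratio of 0.463 (0.338 to 0.633). Both intervals lie below equal density, but they leave out the spread of counts between windows.

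The thinnest of the clusters was 19p12. Its 4 windows, from 20 to 24 Mb, held 1 listed peak of replicate 1 and 3 of replicate 2. By the numbers in the peak names, replicate 2 had 94 to 285 numbered peaks there. Of these, 1.05 to 3.19% were listed, against 8.32% over the chromosome. For replicate 1 the limits, 1 to 152 numbered peaks, are too wide to give a share. The replicate 1 peak lay on the minus strand from 21477209 to 21477538 with a score of 3100. Those of replicate 2 lay from 20804103 to 20804389 (minus, score 510.1), from 23258013 to 23258189 (plus, 1406.12) and from 23937678 to 23937720 (minus, 652.37). No 19p12 peak of either list overlapped a peak of the other. Over the chromosome 17.2% of replicate 1 and 10.2% of replicate 2 peaks did, so with so few peaks this does not set 19p12 apart. The thinning was not limited to the zinc-finger windows. On the other side of the gap, the windows from 27 to 33 Mb held 2 peaks, both of replicate 2 and on the plus strand, from 30308044 to 30308189 and from 30503192 to 30503520. The longest run of windows without a peak of either list, outside the windows taken as the gap, was the 3 windows from 27 to 30 Mb. This run borders the gap, whose exact limits were not looked up, so part of it may belong to the gap.

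Away from 19p12 the zinc-finger windows were closer to the rest. The other 7 held 32 replicate 1 peaks, 4.57 per window and 0.914 times the density of the 47 other windows (0.633 to 1.32). In replicate 2 they held 40 peaks, 5.71 per window and 0.677 times (0.489 to 0.935). When the other windows were limited to the 41 with a peak of either list, these ratios were 0.798 (0.552 to 1.15) and 0.590 (0.427 to 0.816). Counts differed between clusters. In 19p13.2, the window from 9 Mb held 4 and 5 peaks in replicates 1 and 2 and that from 12 Mb held 8 and 7. The windows from 37 Mb (19q13.12), 44 Mb (19q13.31) and 53 Mb (19q13.41) held 4 and 7, 2 and 6, and 5 and 6. At the end of the long arm (19q13.43), the window from 57 Mb held 2 and 2 and that from 58 Mb held 7 and 7. Minus-strand peaks made up 28 of the 43 zinc-finger peaks of replicate 2, which left a plus-strand share of 34.9% (22.4 to 49.8), and 19 of the 33 in replicate 1, with a plus-strand share of 42.4% (27.2 to 59.2).

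The next question was which windows held peaks of both lists. Of the 58 windows outside the gap, 45 did, 20 on the short arm and 25 on the long arm. Peaks of replicate 1 alone were found in 2 windows, from 21 and from 43 Mb, with 1 peak each. Replicate 2 alone occupied 4, from 20, 23, 30 and 59 Mb, with 1 or 2 peaks each, and 7 held neither. Every window with 10 or more peaks over both lists, 36 in number, held peaks of each. With windows of 100 kb, 110 held both lists, which was 68.8% of the 160 windows with a replicate 1 peak and 48.03% of the 229 with a replicate 2 peak. On the other chromosomes, where peaks were sparser, these shares were 46.5% and 27.96%.

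Over the 51 windows with a peak of either list, the counts of the 2 lists had a Spearman rho of 0.70 and a Pearson r of 0.55. Without the window from 39 to 40 Mb, r was 0.77 and rho 0.72. These values describe windows that share their gene content between lists, and say nothing of single peaks.

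**Figure D2:**
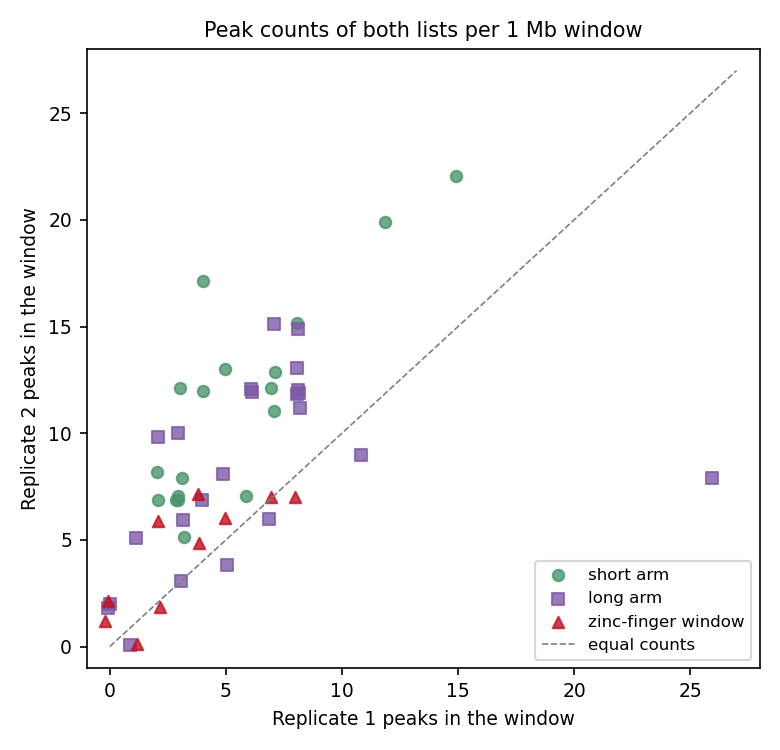
Replicate 1 peaks (horizontal axis) against replicate 2 peaks (vertical axis) in each of the 51 windows of 1 Mb with a peak, with points moved by up to 0.2 so that equal counts do not hide each other. Circles are short-arm, squares long-arm and triangles zinc-finger windows, and the dashed line marks equal counts. Most points lie above the line, and the window with 26 replicate 1 peaks stands alone to the right.

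Windows with both lists did not always hold the same peaks. Overlaps of 1 bp or more on the same strand formed 46 pairs in 25 windows, 9 on the short arm and 16 on the long arm. The other 20 windows with both lists held no overlapping pair. Among these was the window from 50 to 51 Mb, with 8 and 13 peaks, and that from 55 to 56 Mb, with 8 and 12. The window from 1 to 2 Mb held most pairs, 4 in all. Of the replicate 1 peaks on chromosome 19, 46 overlapped a replicate 2 peak, a share of 17.2% (13.122 to 22.1), against 13.02% (11.8 to 14.3) on the other chromosomes. Of the replicate 2 peaks, 45 overlapped, a share of 10.2% (7.73 to 13.411), against 7.11% (6.45 to 7.83). The intervals overlap in both lists, only narrowly in replicate 2, and the difference was not tested. By arm the shares were 18.2% (12.1 to 26.4) and 16.5% (11.5 to 23.02) in replicate 1, short arm first, and 9.17% (6.02 to 13.7) and 11.3% (7.75 to 16.1) in replicate 2. In the zinc-finger windows 2 of 33 replicate 1 peaks overlapped, 6.06% (1.68 to 19.6), against 18.7% (14.3 to 24.2) in the other windows, again with overlapping intervals.

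Those 2 zinc-finger pairs lay in 19q13.12 and 19q13.43. In the former, on the minus strand, replicate 1 listed 37314187 to 37314247 (score 1824.99) and replicate 2 listed 37314212 to 37314282 (463.84), with 36 bp in common. In the latter, on the plus strand, replicate 1 listed 58005923 to 58006048 (3100) and replicate 2 listed 58005728 to 58006021 (110.05), with 99 bp in common.

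The pairs were then ranked by mean log2 score, an order set mostly by replicate 2 because many replicate 1 scores are tied at 3100. First came a plus-strand pair in the window from 1 to 2 Mb, scored 3100 in both lists. Replicate 1 listed 1383707 to 1383795 and replicate 2 listed 1383707 to 1383800, from the same first base. The pair at 39936605 described above was the second. The third was a plus-strand pair at 10982253 to 10982470 in replicate 1 (2840.62) and 10982399 to 10982598 in replicate 2 (1852.35), with 72 bp in common. Next was a plus-strand pair that began at 35801450 in both lists, 97 bp wide in replicate 1 (3100) and 18 bp in replicate 2 (1305.32). The fifth lay on the minus strand, where the 257 bp of replicate 1 from 40728537 to 40728793 (3100) fell inside the 987 bp of replicate 2 from 40728224 to 40729210 (994.24).

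The remaining pairs of the first 10 had replicate 2 scores from 811.71 to 1496.78. They began in replicate 1 at 56041211 on the minus strand and at 36573965, 42402441, 10764937 and 4258259 on the plus strand. The replicate 1 peak from 42402441 to 42402654 lay inside a replicate 2 peak of 1003 bp, and the pair at 36573965 shared its first base with 179 bp in replicate 1 and 50 bp in replicate 2. At 56041211 the peaks of 480 and 303 bp were staggered by their ends and shared 199 bp. High-ranking pairs thus included matching edges, nested peaks and staggered peaks.

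Over all 46 pairs, 18 began or ended on the same base in both lists, a share of 39.1% (26.4 to 53.5), against 54.2% (49.2 to 59.2) of the 380 pairs on other chromosomes. Both ends matched in 3 pairs. These were 36213897 to 36214176 on the plus strand, and 40771918 to 40772255 and 56988278 to 56988487 on the minus strand. Their scores were 512.64, 3100 and 3100 in replicate 1 and 75.44, 135.8 and 148.27 in replicate 2. All 3 replicate 2 scores lay below 317, the median of that list on chromosome 19. The common stretch had a median of 155 bp (10 to 525), and 18 pairs shared at least 50% of both peaks. Replicate 2 was wider in 22 pairs, replicate 1 in 21, and 3 were equal. Scores of the pairs had a Spearman rho of 0.09, a description with 25 of the 46 replicate 1 scores tied at 3100, and of 0.43 over the 21 pairs below it.

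**Figure D3:**
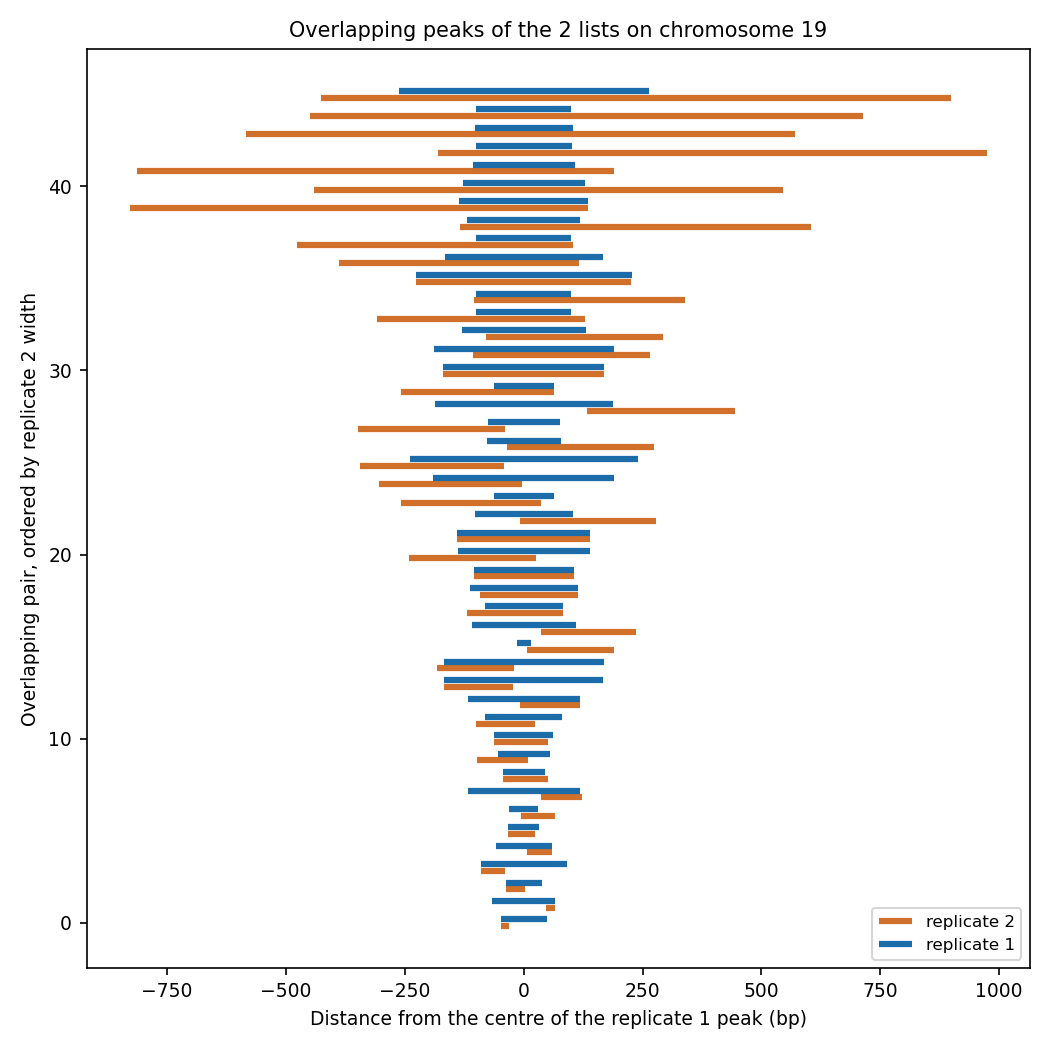
The 46 overlapping pairs, each as a replicate 1 peak (blue) and a replicate 2 peak (orange), drawn by distance in bp from the centre of the replicate 1 peak and ordered by replicate 2 width. Peaks of replicate 2 range more widely, reaching 1325 bp at the top, where the paired replicate 1 peak measures 525 bp.

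Few peaks without an overlapping partner lay close to a peak of the other list on the same strand. Of the 222 such peaks of replicate 1, 13 lay within 1 kb, 5.86% (3.45 to 9.76), 61 within 10 kb, 27.5% (22.03 to 33.7), and 170 within 100 kb, 76.6% (70.6 to 81.7). Of the 395 in replicate 2, 14 lay within 1 kb, 3.54% (2.12 to 5.86), 71 within 10 kb, 17.97% (14.5 to 22.1), and 213 within 100 kb, 53.9% (48.99 to 58.8). No share expected from the spacing of the peaks was computed, so these values show no nearness beyond that spacing. When same-strand peaks of both lists were linked over gaps no longer than 10 kb, they fell into 488 clusters. Of those, 342 were single peaks, 85 held both lists and 8 held 5 or more peaks.

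The largest of these clusters spanned 20.4 kb of the plus strand from 36207770 to 36228164, with 3 peaks of replicate 1, 5 of replicate 2 and 1 overlapping pair. It held the widest replicate 2 peak of the chromosome, 1879 bp from 36210686 to 36212564 with a score of 549.03. Clusters of 6 peaks lay on the plus strand from 14023361 to 14040473 and on the minus strand from 46329484 to 46347458, each with 1 replicate 1 peak, 5 replicate 2 peaks and no overlapping pair. The other 5 had 5 peaks each and lay on the minus strand, starting at 3015651, 4538473, 12810682, 18979870 and 40728224. The last of these was the most compact, with 3 and 2 peaks and 2 overlapping pairs in 4.37 kb, and each of its replicate 1 peaks scored 3100. Only that cluster, the one from 36207770 and the one from 3015651 held overlapping pairs among the 8.

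In replicate 2, peaks were wider on the long arm than on the short arm. The median width on chromosome 19 was 159.5 bp in replicate 1 (interquartile range 92.3 to 236) and 148.5 bp in replicate 2 (79.8 to 263), against 167 and 140 bp on the other chromosomes. In replicate 2 the median was 130 bp on the short arm (95% interval from ranks 109 to 143) and 199 bp on the long arm (151 to 212). In replicate 1 it was 151 bp (126 to 184) and 169 bp (147 to 200), with intervals that overlap. Peaks of 500 bp or more numbered 7 of 218 on the short arm of replicate 2, 3.21% (1.56 to 6.48), and 17 of 222 on the long arm, 7.66% (4.84 to 11.9). In replicate 1 there were 1 and 2 such peaks. Peaks under 50 bp made up 18.3% (13.8 to 24.02) of the short arm and 11.7% (8.12 to 16.6) of the long arm in replicate 2, and 17.3% (11.3 to 25.4) and 10.8% (6.83 to 16.6) in replicate 1. These intervals overlap within each list.

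**Figure D4:**
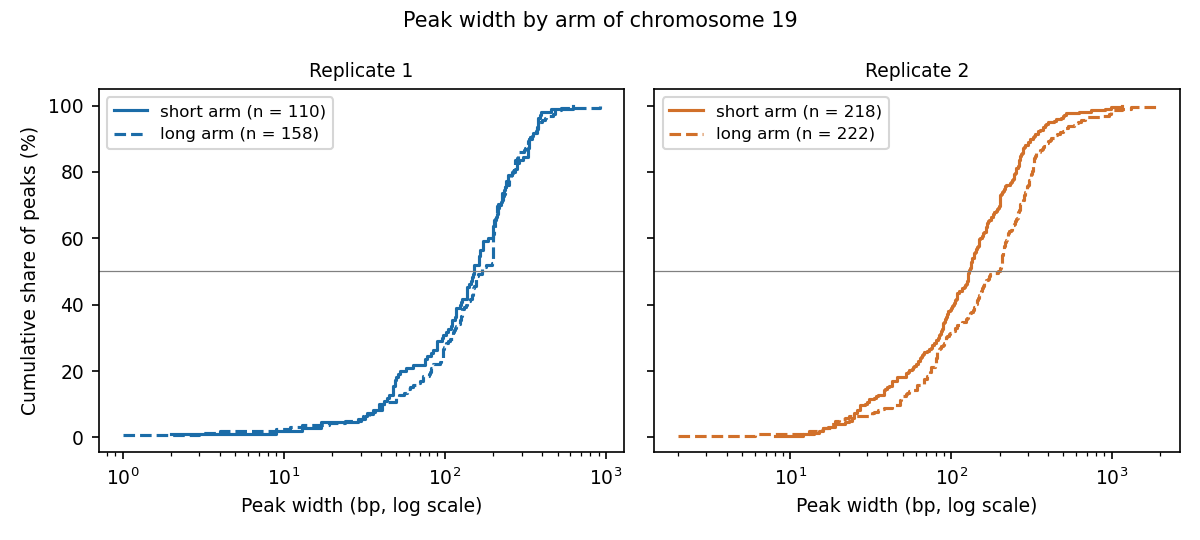
Cumulative share of peaks (%) by width in bp on a log axis, for the short arm (solid) and the long arm (dashed), with replicate 1 at left and replicate 2 at right. The grey line marks 50%. The arms separate in replicate 2, with medians of 130 and 199 bp, and lie close in replicate 1.

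The widest replicate 1 peak measured 921 bp, on the minus strand from 50377333 to 50378253, with a score of 1579.82. The narrowest were very short: replicate 1 listed a single base at 50059079 with a score of 3100, and replicate 2 listed 2 bp from 55879578 to 55879579, also with 3100. A width of exactly 200 bp was the most frequent in both whole lists. On chromosome 19 it was held by 16 replicate 1 peaks, 5.97% (3.71 to 9.48), of which none reached a score of 3100, although 54.1% of the chromosome's replicate 1 peaks did. In replicate 2 it was held by 2 peaks, 0.455% (0.125 to 1.64), against 2.005% (1.66 to 2.42) on the other chromosomes. Without that width the medians of the arms in replicate 2 were 129 and 199 bp.

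Scores are the authors' own, without a stated scale, and were read within each list. In replicate 1, 145 of the 268 peaks had a score at or above 3100, a share of 54.1% (48.1 to 59.97), against 51.8% (49.99 to 53.6) on the other chromosomes. The 123 peaks below it had a median of 689 (520 to 953), against 655 (591 to 723). In replicate 2 only 7 of 440 peaks reached 3100, 1.59% (0.773 to 3.25), against 0.605% (0.429 to 0.853), and the others had a median of 304 (270.01 to 355), against 275 (265 to 287). Each of these intervals overlaps that of the other chromosomes.

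Score intervals of the arms, and of zinc-finger and other windows, overlapped within each list. The share at or above 3100 in replicate 1 was 51.8% (42.6 to 60.9) on the short arm and 55.7% (47.9 to 63.2) on the long arm. It was 51.5% (35.2 to 67.5) in the zinc-finger windows and 54.5% (48.1 to 60.7) in the others. Replicate 2 had median scores of 308.7 on the short arm and 325.9 on the long arm, and of 294 in the zinc-finger windows and 329 in the others. Intervals were computed only for its peaks below 3100. Their medians were 293 (245 to 372) on the short arm and 312 (267 to 373) on the long arm. They were 294 (173 to 482) in the zinc-finger windows and 312 (270 to 357) in the others. The highest zinc-finger score of that list was 1526.08. Overlapping peaks of replicate 2 had a median of 390 and the others 310, and in replicate 1 54.3% and 54.1% reached 3100. Width and score had a Spearman rho of 0.05 in replicate 1 and 0.06 in replicate 2 over 268 and 440 peaks. Both values are near 0.

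Scores at or above 3100 were held by peaks with and without a partner. In replicate 1, 25 of the 145 such peaks overlapped a replicate 2 peak, 17.2% (11.96 to 24.2), against 17.1% (11.4 to 24.7) of the 123 below. In replicate 2, 2 of 7 overlapped, 28.6% (8.22 to 64.1), against 9.93% (7.46 to 13.11) of the 433 below, with intervals that overlap. The peaks named next, apart from the top peaks of the arms, were picked among those without a partner. Replicate 1 was led by a 17 bp peak on the minus strand from 17750318 to 17750334 (3225.28), the highest of the short arm. A plus-strand peak from 50172281 to 50172392 (3150.69) was the highest of the long arm. The peak from 39915168 to 39915428 (3122.3) in the dense window came next, and then 142 peaks tied at 3100. The first of them by position without a partner lay on the minus strand at 327872 to 327989 and at 440862 to 440910. Replicate 2 was led by a 371 bp peak on the minus strand from 13064970 to 13065340 (3213.92), followed by 6 peaks at 3100. Without a partner among these were 5151346 to 5151546 (plus), 5719802 to 5720157 (minus), 45981994 to 45982086 (minus) and the 2 bp peak given above.

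Strand was close to even in both lists, with plus-strand shares of 52.2% (46.3 to 58.1) in replicate 1 and 49.1% (44.4 to 53.7) in replicate 2. By arm, the replicate 1 share was 43.6% (34.7 to 52.96) on the short arm and 58.2% (50.4 to 65.6) on the long arm, where the dense window gave 19 of the 92 plus-strand peaks. In replicate 2 these shares were 47.7% (41.2 to 54.3) and 50.5% (43.9 to 56.96).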

How the data were processed

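The authors deposited 1 peak list per replicate, and per the labels both the immunoprecipitated and the input sample of that replicate name it. The notes on processing by the submitters list cutadapt 1.9.3, which trims reads, and hg19. Peak names begin with MACS, a peak caller. The aligner, caller version and thresholds were not given in the sources used here. Scores were deposited by the authors without a stated scale. They were used within a list, except in the mean log2 score that ranks pairs. Starts were read as 0-based and are printed 1-based.

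Windows, overlaps, clusters and intervals came from pandas 2.3.3, numpy 2.4.6 and scipy 1.17.1 under Python 3.11.15, and figures from matplotlib 3.10.9. The functions for overlaps, clusters and windows were tested on simulated data. Intervals of density ratios come from the Wilson interval of the share of peaks, and those of medians from binomial ranks. Numbers at window borders were interpolated linearly between listed peaks. Shares of numbered peaks leave out the 14 peaks per list named in the report, but keep the unlisted numbers of that region. For the arms and the chromosome they use the midpoint of their limits.

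The peaks to describe, the zinc-finger windows and the rules were chosen with earlier results of these data known. The regions named are, per list, the 5 highest-scoring peaks without overlap, the widest, the narrowest and the top peak of each arm. Over both lists they are the 10 first pairs, the 6 fullest windows, the longest empty run, each zinc-finger window and clusters of 5 or more peaks. The dense window's peaks and shared-edge pairs were added after their values were seen. Arm borders and zinc-finger windows come from general knowledge of hg19. The gene table at hand is of another build, so no gene, sequence or transcript region was assigned.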

Additional observations from a re-analysis of the deposited data

How the results depend on the processing

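Of 82 values under 16 alternative settings, 65 stayed within the 95% interval of the main value (for the count of windows, within 1.5 times it) without a change of direction, and 16 moved outside it. The last, the arm ratio of replicate 1, turned from 0.919 to 1.07 without the window from 39 to 40 Mb, a setting chosen after seeing the data. The zinc-finger ratio stayed below 1 under each alternative tried. It was 0.05 and 0.0888 in replicates 1 and 2 with the 19p12 windows alone. In replicates 1 and 2 it was 0.726 and 0.709 with the wider set of windows. It was 0.424 and 0.234 on the short arm alone, and 0.812 and 0.808 on the long arm alone. Outside 19p12 the ratio of replicate 1 was 0.914, with an interval of 0.633 to 1.32 that includes equal density. Overlapping shares fell to 6.72% and 4.09% with a reciprocal overlap of 50%, to 10.1% and 6.14% with midpoints within 100 bp, and to 11.03% and 6.81% among peaks at or above their list's median score, where fewer partners remain. With peaks of 50 bp or more, median widths were 200 and 176.5 bp and listed shares of numbered peaks 14.7% and 7.07%, as that filter removes narrow peaks. With 100 kb windows, 110 held both lists, out of more windows. Keeping the 14 peaks left out in each list moved none of the values tried under that setting outside its interval. The listed share of the dense stretch that begins at 39 Mb was not among those values. In replicate 1 that share was below the chromosome's without the 14 peaks and above it with them. In replicate 2 it was below in both cases. Leaving out a replicate leaves the other list, whose values are given separately. No paired analysis was possible because each replicate number has 1 list made from its immunoprecipitated and input samples together, and no test between groups was made. The depth of the libraries is unknown, so an unlisted position may lack a peak or lack reads. It may also hold a peak that was numbered but not listed.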
